A study of Mus musculus with 12 samples.

Results

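Axon guidance ligands and receptors are secreted or membrane-bound cues and the surface receptors that read them. The set described here took every non-control probe whose gene name belonged to the semaphorins, plexins, neuropilins, Eph receptors, ephrins, Slits, Robos, netrins, Unc5 receptors or teneurins (listed under their older symbols, Odz1 to Odz4). It held 69 genes on 130 probes, of 27962 named features on 41174 probes. The arrays measured total RNA of mouse embryonic fibroblasts (MEFs), a connective tissue culture made from embryos, in 3 genotypes of Sirt1, which encodes an NAD-dependent protein deacetylase. There were 4 SIRT1 knockout (KO), 4 SIRT1 heterozygous (Het) and 4 wild-type (WT) arrays. The labels give all the cells as female and untreated, in DMEM with 25 mM glucose, 4 mM glutamine and 10% serum, and the study's title asks about effects that depend on SIRT1 dosage. The labels state neither the allele, the strain nor the embryos, and do not say whether replicates were separate cultures. The p-values therefore cover only the variation among these arrays, which may be technical.

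Guidance cues were named for steering growing axons, by attraction or repulsion, and the same proteins act in vessels, muscle, bone, immune cells and connective tissue. Class 3 semaphorins are secreted and bind neuropilins, which signal through plexins, while most other semaphorins bind plexins directly. Slits bind Robo receptors, netrins bind Dcc, neogenin and Unc5 receptors, ephrins bind Eph receptors on touching cells and can signal in both directions, and teneurins bind each other and latrophilins across cell contacts. Many of these receptors act on the cytoskeleton and on cell movement.

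Levels are processed signals on the log2 scale after subtraction of each array's 75th percentile, which is 0 on this scale, and they are compared only within a gene. A gene was tested if its probe was well above background on all arrays of at least 1 genotype, and was called at a limma adjusted p under 0.05 over all 16990 tested features. Arrays of the same genotype correlated at 0.97 to 0.998, or at 0.925 to 0.969 where 1 of the pair was a replicate 3. KO replicates 4 and 5, on the same slide, made the closest pair. The share of spots well above background was 77.2% to 78.2% on slide 4 (KO replicates 4 and 5, Het replicate 5, WT replicate 5) and 59.97% to 65.1% on the other arrays. The array labelled WT replicate 3 went against its female label: Ddx3y, on the Y chromosome, had a level of 1.04 there and of −10.16 to −4.35 on the other 11 arrays. A Sirt1 probe was lower in KO than in WT by 0.83 on the log2 scale (SE 0.17, limma adjusted p = 0.0361, n = 4 per genotype), and the other differed by 0.02 (adjusted p = 0.982). Which part of Sirt1 was deleted is not given in the labels. The 10 fibroblast markers were well above background on all 12 arrays. Their summed signal, in units of the array's 75th percentile, overlapped between genotypes. It was 476 to 537 in KO, 515.4 to 682.7 in Het and 425.7 to 531.5 in WT. Thy1 had lower levels in KO (0.132 to 0.794) than in Het (2.576 to 3.062) and WT (3.104 to 4.764). So did Dcn (−1.261 to 0.812 in KO, 2.499 to 4.261 in Het and 1.312 to 2.622 in WT). Whether these differences bear on the guidance genes was not tested. In bulk RNA, fewer cells of a type and less RNA per cell cannot be told apart.

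Most of the guidance genes were measurable in these fibroblasts. Of the 69 genes, 52 were well above background on all 12 arrays, 56 were tested, and 2 (Epha10 and Odz1) were above background on no array. The tested genes included 18 of 20 semaphorins, both neuropilins, 6 of 8 plexins, all 8 ephrins, 9 of 14 Eph receptors, all 3 Slits, 3 of 4 Robos, both netrins, 3 of 4 Unc5 receptors and 2 of 4 teneurins. The 13 genes that were not tested were Sema6a, Sema6d, Plxna4, Plxnb3, Epha5, Epha6, Epha8, Epha10, Ephb1, Robo4, Unc5d, Odz1 and Odz2. For 4 of the tested genes the probe was on only part of the arrays. Ntn4 was well above background on 3 of 4 KO, 1 of 4 Het and 4 of 4 WT arrays, and Robo2 on 4 of 4 KO, 2 of 4 Het and 2 of 4 WT arrays. Plxnc1 and Robo3 missed 1 WT array each.

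KO cells differed from WT in both neuropilins, 3 semaphorins, 1 Slit and 1 netrin. Nrp2, Sema4a and Sema4f were higher, and Nrp1, Sema5a, Slit3 and Ntn4 were lower. These are 7 of the 56 tested genes (12.5%), beside 1.64% of all tested features called between KO and WT (0.971% higher and 0.665% lower). Het cells were lower than WT in 5 of 56 (8.93%, beside 1.17% of all tested features in either direction and 0.5% lower): Sema3c, Sema5a, Plxna1, Ntn4 and Odz3. Between KO and Het, 4 of 56 were called (7.14%, beside 0.995%, of which 0.583% higher and 0.412% lower): Nrp2, Sema4f and Odz3 were higher in KO, and Nrp1 was lower. Without scaling between arrays there were also 4 calls between KO and Het, 4 higher and 0 lower, but not the same 4. Nrp2, Sema4f and Odz3 stayed, and Nrp1 was lost (−0.66, limma adjusted p = 0.313). The KO and Het comparisons share the WT arrays, so Sema5a and Ntn4, called in both, were not called on separate controls. The arrays of the groups did not overlap for 7 genes between KO and WT (8.83% of all tested features), for 9 between Het and WT (9.26%) and for 11 between KO and Het (10.6%).

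**Figure D1:**
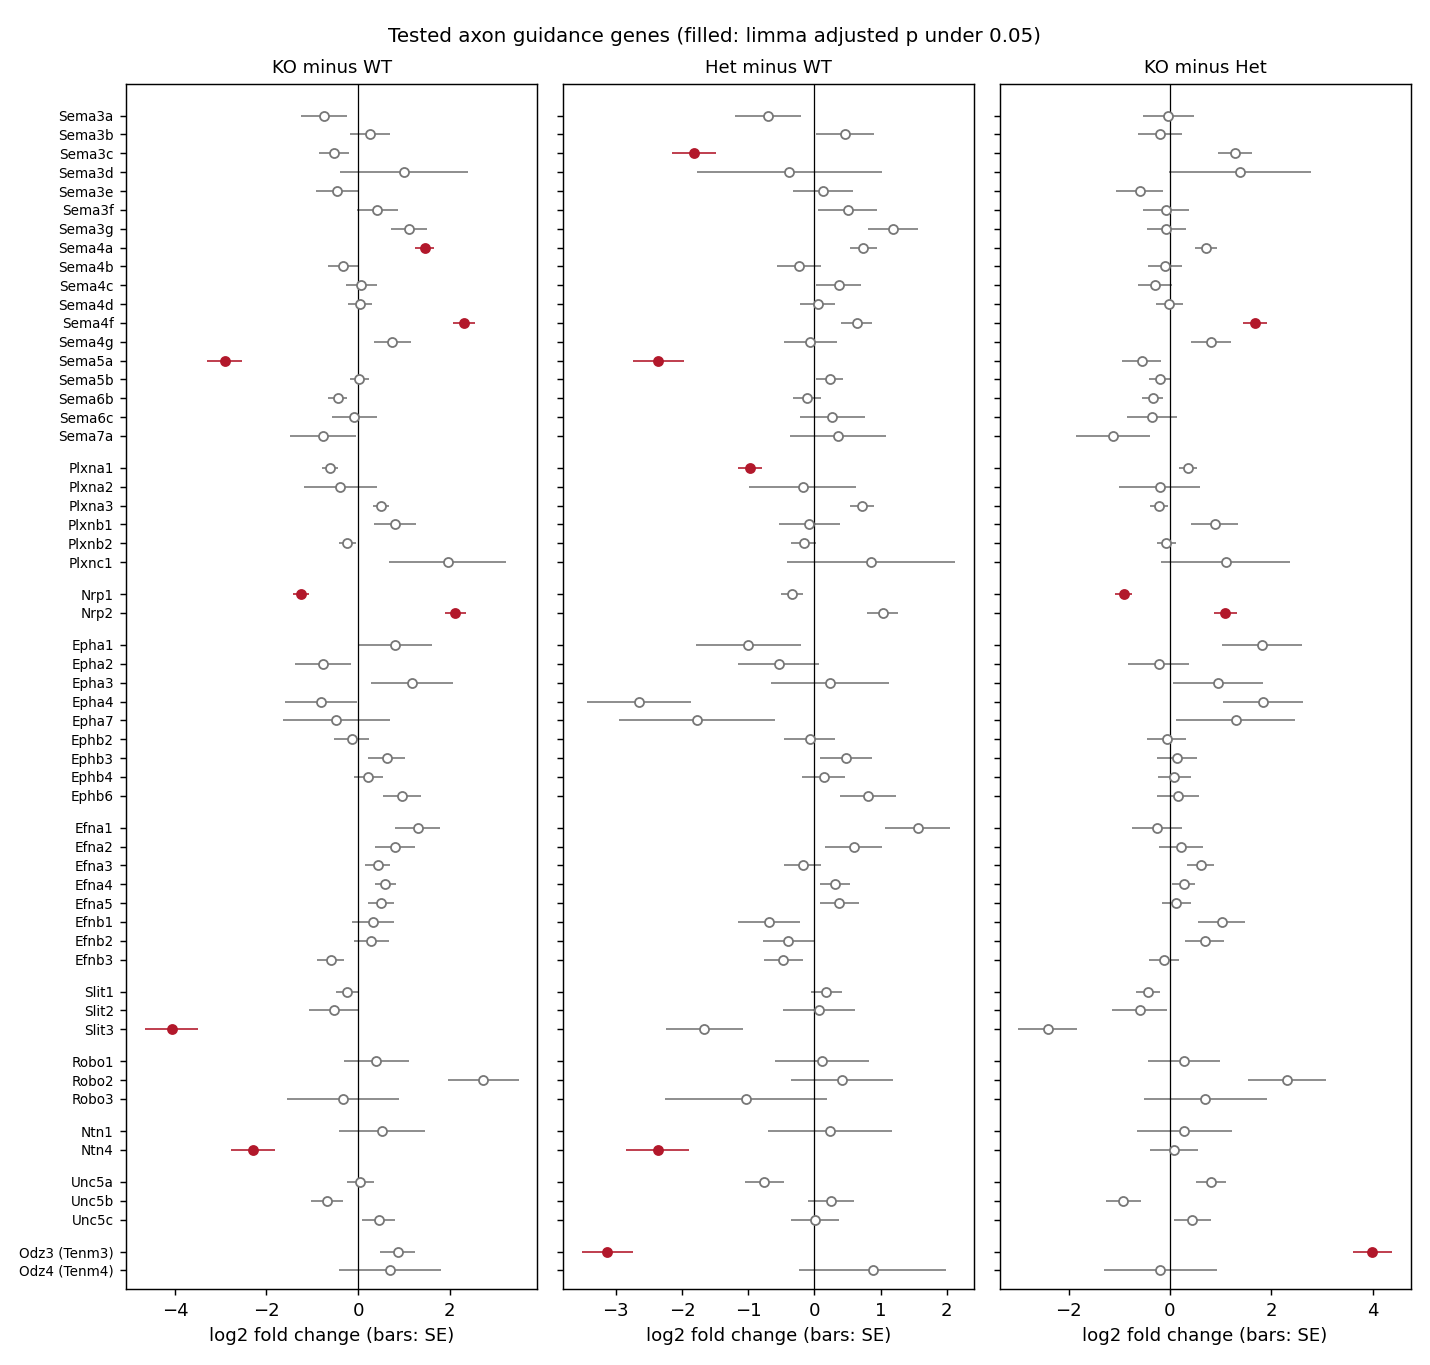
Log2 fold changes of the 56 tested axon guidance genes, by family down the page, for KO minus WT, Het minus WT and KO minus Het, with bars of 1 SE and filled points where the limma adjusted p was under 0.05. The widest change is the fall of Slit3 in KO against WT (−4.07), and Odz3 moves to −3.13 in Het against WT and 3.99 in KO against Het.

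The direction was mixed in the set as a whole. The median log2 fold change of the 56 genes was 0.24 between KO and WT, 0.06 between Het and WT and 0.11 between KO and Het, beside 0.075, 0.08 and −0.02 over all tested features. Their median absolute change was 0.59, 0.44 and 0.40 in the same order, beside 0.25, 0.27 and 0.21 over all tested features. Without scaling between arrays, the median of all features was 0.09 between KO and WT, −0.155 between Het and WT and 0.23 between KO and Het.

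The stretch just upstream of the gene start is shown for 2 genes that were higher in KO (Nrp2, Sema4f) and 2 that were lower (Sema5a, Slit3), to show how unlike these regions are. Each is the 250 bases before the RefSeq gene start, on the gene's strand, from GRCm38.p6. Capitals mark GC boxes, the letters GGGCGG or their reverse complement CCGCCC, which is the core that Sp family factors are known to bind. The regions are chr1:62703067-62703316 (+) for Nrp2, chr6:82939770-82940019 (−) for Sema4f, chr15:32244563-32244812 (+) for Sema5a and chr11:35121206-35121455 (+) for Slit3.
Nrp2: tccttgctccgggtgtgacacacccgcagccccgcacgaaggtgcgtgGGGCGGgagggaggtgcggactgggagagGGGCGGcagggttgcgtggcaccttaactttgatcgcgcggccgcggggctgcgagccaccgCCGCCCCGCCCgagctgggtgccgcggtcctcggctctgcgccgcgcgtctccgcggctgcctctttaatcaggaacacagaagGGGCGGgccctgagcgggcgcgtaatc
Sema4f: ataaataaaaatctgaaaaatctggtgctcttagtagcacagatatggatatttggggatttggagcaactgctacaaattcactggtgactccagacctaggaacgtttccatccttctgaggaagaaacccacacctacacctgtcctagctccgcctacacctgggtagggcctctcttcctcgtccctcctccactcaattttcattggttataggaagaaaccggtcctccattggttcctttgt
Sema5a: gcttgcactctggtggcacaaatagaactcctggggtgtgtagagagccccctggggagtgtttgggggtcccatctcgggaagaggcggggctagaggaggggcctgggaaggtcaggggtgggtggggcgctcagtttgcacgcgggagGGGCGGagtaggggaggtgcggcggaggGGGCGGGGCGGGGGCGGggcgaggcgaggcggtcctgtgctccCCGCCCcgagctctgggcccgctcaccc
Slit3: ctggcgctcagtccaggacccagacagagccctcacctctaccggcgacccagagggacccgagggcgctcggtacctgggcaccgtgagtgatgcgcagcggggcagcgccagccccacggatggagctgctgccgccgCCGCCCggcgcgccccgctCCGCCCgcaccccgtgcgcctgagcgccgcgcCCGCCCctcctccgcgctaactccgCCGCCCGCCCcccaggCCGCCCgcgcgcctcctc
The Nrp2, Sema5a and Slit3 regions held 5, 5 and 6 GC boxes, some of them overlapping, at 72.4%, 72.0% and 78.8% G and C. The Sema4f region held none, at 46.0%. A GC box on either strand lay in 33.0% of 32536 such regions of all genes, and in 51 of the 77 regions (66.2%) matched to 60 of the 69 guidance genes. Both a gene that was higher in KO and genes that were lower had such boxes, and no match here is shown to be a site.

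The neuropilins, co-receptors of class 3 semaphorins and of vascular endothelial growth factor, moved in opposite directions. Nrp2 had levels of 4.79, 5.20, 5.11 and 5.03 in KO replicates 2, 3, 4 and 5, against 4.27, 3.72, 3.92 and 3.83 in Het replicates 2, 3, 4 and 5 and 2.24, 3.08, 2.95 and 3.37 in WT replicates 1, 2, 3 and 5. The 3 genotypes did not overlap, with KO highest and WT lowest. Nrp2 was 4.37-fold higher in KO than in WT (log2 fold change 2.13, SE 0.23, limma adjusted p = 0.00188, n = 4 each) and 2.14-fold higher in KO than in Het (1.10, SE 0.23, adjusted p = 0.0499). The second of these calls lies at the threshold and was kept only without WT replicate 1 or without WT replicate 3 when single arrays were left out (adjusted p 0.0554 to 0.177 without any of the others). Het exceeded WT by 1.03 (SE 0.23), which did not pass (adjusted p = 0.0559). The second Nrp2 probe was above background on 0 of the 12 arrays.

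Nrp1 had levels of −1.10, −1.34, −1.19 and −1.33 in KO, against −0.13, −0.19, −0.60 and −0.39 in Het and −0.09, −0.25, 0.42 and −0.04 in WT, with replicates in the same order as above. Each KO array lay below each Het and each WT array, and the Het and WT arrays overlapped. Nrp1 was 2.38-fold lower in KO than in WT (log2 fold change −1.25, SE 0.17, limma adjusted p = 0.00652, n = 4 each) and 1.89-fold lower in KO than in Het (−0.91, SE 0.17, adjusted p = 0.034). With slide as a block the KO minus WT difference was −1.19 (adjusted p = 0.0653) and the KO minus Het difference −0.93 (adjusted p = 0.101), so neither passed. Nor did they without scaling between arrays (−1.24, adjusted p = 0.0713, and −0.66, adjusted p = 0.313). The KO minus Het call was also lost without Het replicate 2, 4 or 5, KO replicate 2, 4 or 5, or WT replicate 5 (adjusted p 0.0567 to 0.13). Within slides 3 and 4, KO minus WT was −1.18 and −1.22, a description from 1 or 2 arrays a side. Of the other Nrp1 probes, 1 gave −1.28 between KO and WT (adjusted p = 0.0256 in the fit of single probes) and the other −0.74 (adjusted p = 0.196).

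**Figure D2:**
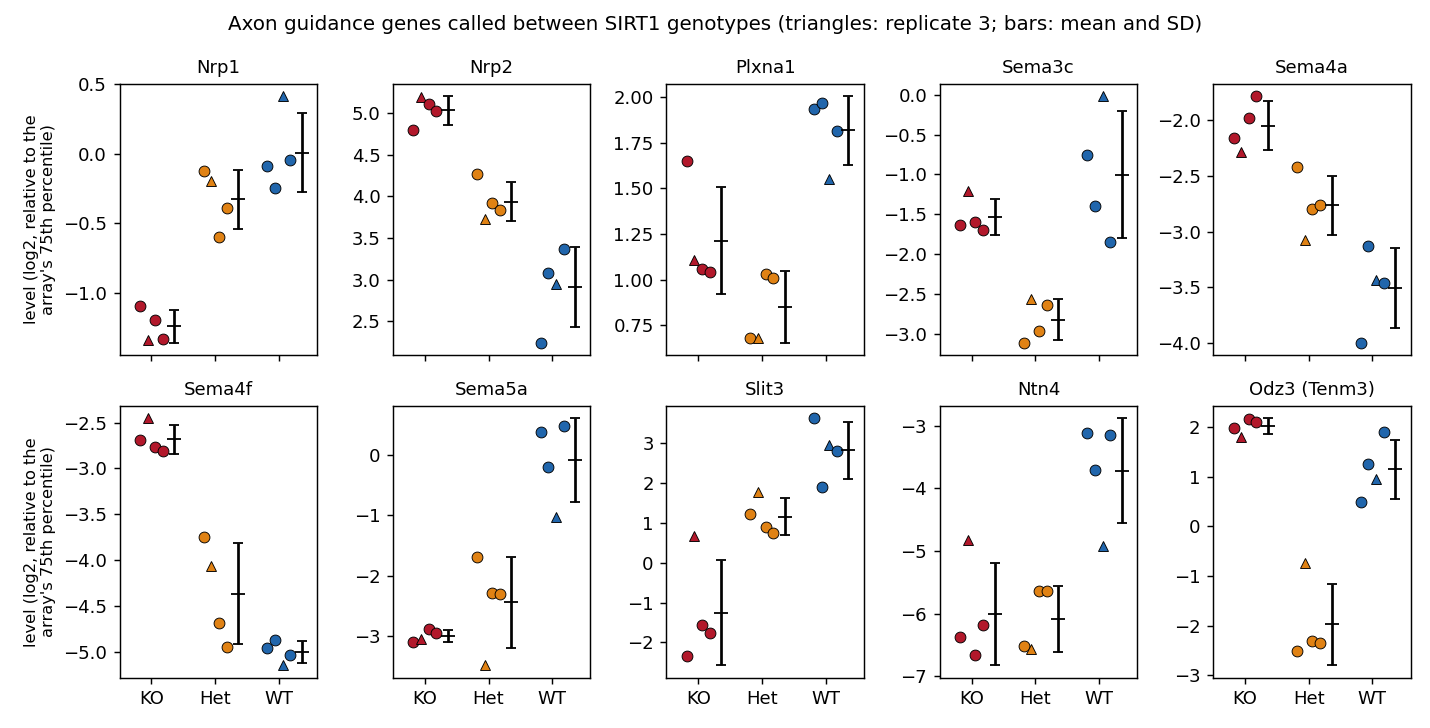
Levels (log2 signal relative to the 75th percentile of the array) of the axon guidance genes called in any comparison, with 1 point per array, KO left, Het in the middle and WT right, and the group mean as a line. Nrp2 steps down over the 3 genotypes without overlap, and Odz3 is lowest in Het.

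Among the semaphorins, Sema4f and Sema4a, both membrane-bound class 4 proteins, were higher in KO. Sema4f had levels of −2.69, −2.46, −2.77 and −2.81 in KO, against −3.75, −4.06, −4.68 and −4.95 in Het and −4.95, −4.87, −5.14 and −5.04 in WT. KO lay above both other genotypes on every array, and Het replicate 5 alone of the Het arrays lay within the range of WT. The KO level was 4.99-fold that of WT (log2 fold change 2.32, SE 0.24, limma adjusted p = 0.00183, n = 4 each) and 3.21-fold that of Het (1.68, SE 0.24, adjusted p = 0.0101). Only without Het replicate 4 was the call against Het lost among the 12 single arrays left out (adjusted p = 0.0511). On slides 3 and 4 the KO minus WT difference was 2.32 and 2.25.

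Sema4a, known from the immune system and the retina, had levels of −2.16, −2.29, −1.98 and −1.78 in KO, against −2.42, −3.07, −2.80 and −2.76 in Het and −4.0, −3.13, −3.43 and −3.46 in WT. As for Nrp2, the genotypes did not overlap and Het lay between KO and WT. KO was 2.74-fold above WT (1.46, SE 0.21, limma adjusted p = 0.00844, n = 4 each). Neither step on its own passed, at 0.71 between KO and Het (adjusted p = 0.177) and 0.74 between Het and WT (adjusted p = 0.11).

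Sema5a, a membrane-bound semaphorin with thrombospondin repeats, was lower in both mutant genotypes. Its levels were −3.09, −3.05, −2.87 and −2.95 in KO, against −1.69, −3.48, −2.28 and −2.30 in Het and 0.39, −0.19, −1.02 and 0.48 in WT. All 4 KO and all 4 Het arrays lay below the lowest WT array, and KO and Het overlapped. Sema5a was 7.51-fold lower in KO than in WT (log2 fold change −2.91, SE 0.39, limma adjusted p = 0.00544, n = 4 each) and 5.12-fold lower in Het than in WT (−2.36, SE 0.39, adjusted p = 0.0286). KO and Het differed by −0.55 (SE 0.39, adjusted p = 0.676). A second probe gave −2.78 between KO and WT and −2.46 between Het and WT, and both passed in the fit of single probes. That probe was well above background on 2 of 4 KO, 1 of 4 Het and 4 of 4 WT arrays, so it entered the test through WT alone, where it is high, and adds no independent support. With slide as a block neither difference passed (−2.70, adjusted p = 0.0547, for KO, and −1.98, adjusted p = 0.149, for Het). The Het call was lost without Het replicate 4 or 5, KO replicate 2, 4 or 5, or WT replicate 2 or 5 (adjusted p 0.0503 to 0.0845).

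Sema3c, a secreted ligand of neuropilins and plexin D1, was lower in Het. It had levels of −1.64, −1.20, −1.59 and −1.70 in KO, against −3.11, −2.56, −2.96 and −2.64 in Het and −0.75, −1.39, −0.02 and −1.84 in WT. Het lay below KO and WT on every array, and KO lay inside the range of WT. Het was 3.51-fold lower than WT (−1.81, SE 0.33, limma adjusted p = 0.0386, n = 4 each), and KO minus Het was 1.28 (adjusted p = 0.123). The call was lost with a slide block (−1.80, adjusted p = 0.157) and without Het replicate 2, 4 or 5, KO replicate 2, 4 or 5, or WT replicate 1 or 2. A second probe gave −1.94 for Het minus WT (adjusted p = 0.0699).

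The remaining 14 tested semaphorins were not called in any comparison. Among those with a named partner, Sema4d, the ligand of plexin B1, differed by 0.04 between KO and WT and by 0.05 between Het and WT. Sema3f, a secreted ligand of Nrp2, had 1.08 to 1.45 in KO, 1.02 to 1.68 in Het and −0.48 to 2.33 in WT. Sema3a, a secreted ligand of Nrp1, had levels of −0.18, 1.66, −0.38 and −0.44 in KO and 0.03, 1.54, −0.41 and −0.36 in Het, against 0.86, 1.00, 0.85 and 0.89 in WT. Only replicate 3 lay above WT in each mutant genotype, and the difference was −0.73 for KO (SE 0.50, adjusted p = 0.517) and −0.70 for Het (SE 0.50, adjusted p = 0.519). Sema7a, a lipid-anchored semaphorin, was at −4.53 in KO replicate 3 and −4.26 in WT replicate 3, against −2.56 to −1.08 on the other KO and WT arrays.

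Of the plexins, the main signalling receptors of semaphorins, only Plxna1 was called, in Het. Plxna1 had levels of 1.65, 1.11, 1.06 and 1.04 in KO, against 0.68, 0.68, 1.03 and 1.01 in Het and 1.93, 1.97, 1.55 and 1.82 in WT. Het lay below KO and below WT without overlap. Het was 1.96-fold lower than WT (−0.97, SE 0.18, limma adjusted p = 0.0387, n = 4 each), while KO minus WT was −0.60 (SE 0.18, adjusted p = 0.123). The second Plxna1 probe gave −0.16 for Het minus WT (adjusted p = 0.744). The call was lost with a slide block (−0.88, adjusted p = 0.206) and without Het replicate 2, 4 or 5, KO replicate 4 or 5, or WT replicate 1, 2 or 5. Plxnb1 had −0.60, −2.57, −0.31 and −0.33 in KO, −1.97 to −1.61 in Het and −2.44 to −1.07 in WT, and did not pass (KO minus WT 0.81, SE 0.46, adjusted p = 0.419). Plxnc1, the receptor of Sema7a, had the largest difference of the plexins between KO and WT (1.96, SE 1.27, adjusted p = 0.487), and its arrays numbered 3 stood far above the rest.

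**Figure D3:**
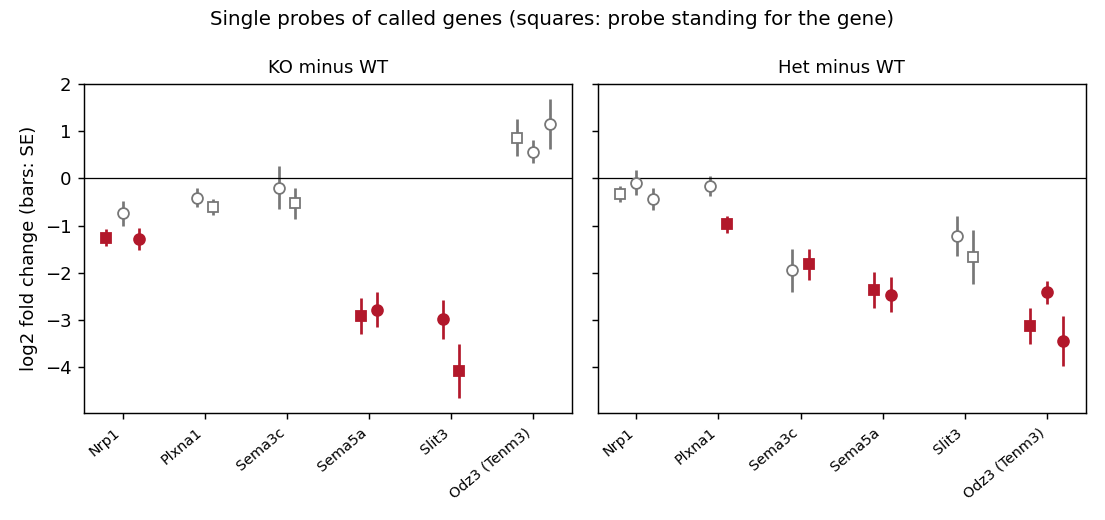
Log2 fold changes of single probes, with bars of 1 SE, for called genes with at least 2 tested probes, KO minus WT on the left and Het minus WT on the right; squares mark the probe that stands for the gene and filled symbols an adjusted p under 0.05. The Odz3, Slit3 and Sema5a probes move together, while the second Plxna1 probe lies near 0 in Het against WT (−0.16). The second Sema5a probe and 1 Odz3 probe entered the test only through the genotype where they are high, and add no independent support.

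Slit3, a secreted ligand of Robo receptors, had the largest change of the set between KO and WT. Its levels were −2.35, 0.67, −1.57 and −1.76 in KO, against 1.23, 1.77, 0.90 and 0.74 in Het and 3.62, 1.89, 2.95 and 2.82 in WT. The genotypes did not overlap, although KO replicate 3 came close to the lowest Het array. Slit3 was 16.8-fold lower in KO than in WT (log2 fold change −4.07, SE 0.58, limma adjusted p = 0.00794, n = 4 each). The steps did not pass on their own, at −2.41 between KO and Het (SE 0.58, adjusted p = 0.096) and −1.66 between Het and WT (SE 0.58, adjusted p = 0.187). Without KO replicate 3 the KO minus Het difference was −3.05 and passed (adjusted p = 0.00348). Within slides 3 and 4, KO minus WT was −4.77 and −4.48, and a second probe gave −2.98 (adjusted p = 0.00787).

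The other Slits were not called. Slit2 had levels of 2.34, 4.31, 2.20 and 2.10 in KO, against 3.36, 3.65, 3.39 and 2.92 in Het and 3.34, 3.74, 1.85 and 4.12 in WT (KO minus WT −0.53, SE 0.54, adjusted p = 0.704). Replicate 3 was the highest KO array and the lowest WT array. Of the receptors, Robo2 had levels of −3.45, −3.59, −3.31 and −3.53 in KO, against −6.80, −5.14, −5.78 and −5.41 in Het and −6.90, −7.42, −3.27 and −7.24 in WT. The KO arrays lay above the Het arrays and above all WT arrays but replicate 3. The KO minus WT difference of 2.74 (SE 0.77) did not pass (limma adjusted p = 0.111, n = 4 each), but without WT replicate 3 it was 3.72 (adjusted p = 0.000599). Robo2 entered the test through its KO arrays alone, where it is high. The 2 further tested Robo2 probes gave 2.85 and 2.09 between KO and WT, neither of which passed. They too entered the test through KO alone (4 of 4 KO arrays, 1 and 0 of 4 Het, 1 and 1 of 4 WT) and add no independent support. Robo1 differed by 0.39 between KO and WT (adjusted p = 0.85).

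Ntn4, a netrin that binds laminins of the basement membrane, was lower in both mutant genotypes, near the background. It had levels of −6.38, −4.83, −6.66 and −6.18 in KO, against −6.52, −6.57, −5.63 and −5.64 in Het and −3.12, −3.70, −4.91 and −3.15 in WT. Het lay below WT throughout, while KO replicate 3 lay above WT replicate 3. Ntn4 was 4.89-fold lower in KO than in WT (−2.29, SE 0.48, limma adjusted p = 0.0405, n = 4 each) and 5.16-fold lower in Het than in WT (−2.37, SE 0.48, adjusted p = 0.042). It entered the test through its WT arrays alone. Both calls were lost with a slide block (adjusted p = 0.1 for KO and 0.115 for Het). With normexp background correction Ntn4 was at −0.77 for KO and −1.14 for Het, and neither passed (adjusted p = 0.441 and 0.268). When single arrays were left out, the KO call was kept only without KO, Het or WT replicate 3, and the Het call only without KO or WT replicate 3.

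Ntn1, the classical attractive netrin, had levels of −1.50, −5.21, −0.97 and −0.92 in KO, against −1.86, −4.49, −1.78 and −1.61 in Het and −2.10, −2.73, −3.69 and −2.16 in WT. Replicate 3 was the lowest array of each genotype, and no comparison passed. The netrin receptor Unc5b had 0.48 to 2.24 in KO, 1.71 to 2.38 in Het and 1.47 to 2.15 in WT (KO minus Het −0.92, SE 0.34, adjusted p = 0.313). Unc5c differed by 0.45 between KO and WT and by 0.01 between Het and WT.

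None of the 8 ephrins or 9 tested Eph receptors was called in any comparison by limma. At an unadjusted p under 0.05 there were 2 ephrins and 1 Eph receptor between KO and WT, 1 and 1 between Het and WT, and 1 and 2 between KO and Het, beside 16.5%, 16.3% and 11.2% of all tested features. Of the 8 ephrins, 7 had a higher mean in KO than in WT, with a median log2 difference of 0.47. Over all tested features, 9966 of 16990 were higher in KO, with a median of 0.075. Efna1, a membrane-anchored ligand of EphA receptors, had levels of −0.28, 0.26, −0.52 and −0.54 in KO, against 0.12, 0.59, −0.44 and −0.34 in Het and −2.24, −2.29, 0.18 and −1.98 in WT. WT replicate 3 lay among the mutant arrays and the other 3 WT arrays below them. The differences of 1.31 for KO (SE 0.49) and 1.56 for Het (SE 0.49) did not pass (limma adjusted p = 0.21 and 0.145, n = 4 each). Without WT replicate 3, Het minus WT was 2.15 and passed (adjusted p = 0.00285). Its receptor Epha2 had 1.85 to 2.40 in KO and 1.39 to 3.01 in Het, against 3.62, 3.95, 0.77 and 3.46 in WT, where replicate 3 was again apart.

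Epha4, a receptor for ephrins of both classes, had levels of −1.53, −4.39, −1.47 and −1.69 in KO, against −5.42, −3.28, −4.13 and −3.60 in Het and −0.64, −0.92, −3.39 and −0.89 in WT. Replicate 3 of KO and of WT lay within the span of the Het arrays. Het minus WT was −2.65 (SE 0.78, limma adjusted p = 0.125, n = 4 each) and KO minus Het was 1.84 (SE 0.78, adjusted p = 0.405). A second Epha4 probe gave −2.59 and 1.17. That probe was well above background on 3 of 4 KO, 2 of 4 Het and 4 of 4 WT arrays. It entered the test through WT alone, where it is high, and adds no independent support. Epha1 had 1.47, −1.17, 1.59 and 1.62 in KO, against −0.47, −0.52, −1.28 and −1.47 in Het and −0.19, 1.43, −2.10 and 1.10 in WT (KO minus Het 1.81, SE 0.79, adjusted p = 0.422). The KO arrays other than replicate 3 lay above all Het arrays. Of the remaining partners, Efna5, Efnb1, Efnb2, Ephb2 and Ephb4 differed between KO and WT by −0.14 (Ephb2) to 0.50 (Efna5), and Efnb1 by 1.02 between KO and Het (adjusted p = 0.448).

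Odz3 (now Tenm3), a teneurin that links cells across contacts, set Het apart from both other genotypes. Its levels were 1.99, 1.81, 2.16 and 2.11 in KO, against −2.51, −0.75, −2.30 and −2.35 in Het and 0.50, 1.26, 0.95 and 1.90 in WT. Each Het array lay below each KO and each WT array, while the ranges of KO and WT overlapped at WT replicate 5. Odz3 was 8.75-fold lower in Het than in WT (−3.13, SE 0.39, limma adjusted p = 0.00807, n = 4 each) and 15.9-fold higher in KO than in Het (3.99, SE 0.39, adjusted p = 0.00321). KO and WT differed by 0.86 (SE 0.39, adjusted p = 0.291). The other 2 probes of the gene gave −2.41 and −3.44 for Het minus WT and 2.98 and 4.59 for KO minus Het, and all 4 values passed in the fit of single probes. The first of these probes (−2.41 and 2.98) was well above background on 4 of 4 KO, 0 of 4 Het and 2 of 4 WT arrays, so it entered the test through KO alone and adds no independent support. Neither call was lost when any of the 12 arrays was left out. Odz4 (Tenm4), also tested, had −2.81 to −0.69 in KO, −3.16 to 0.46 in Het and −4.59 to 0.71 in WT, with replicate 3 highest in each genotype.

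**Figure D4:**
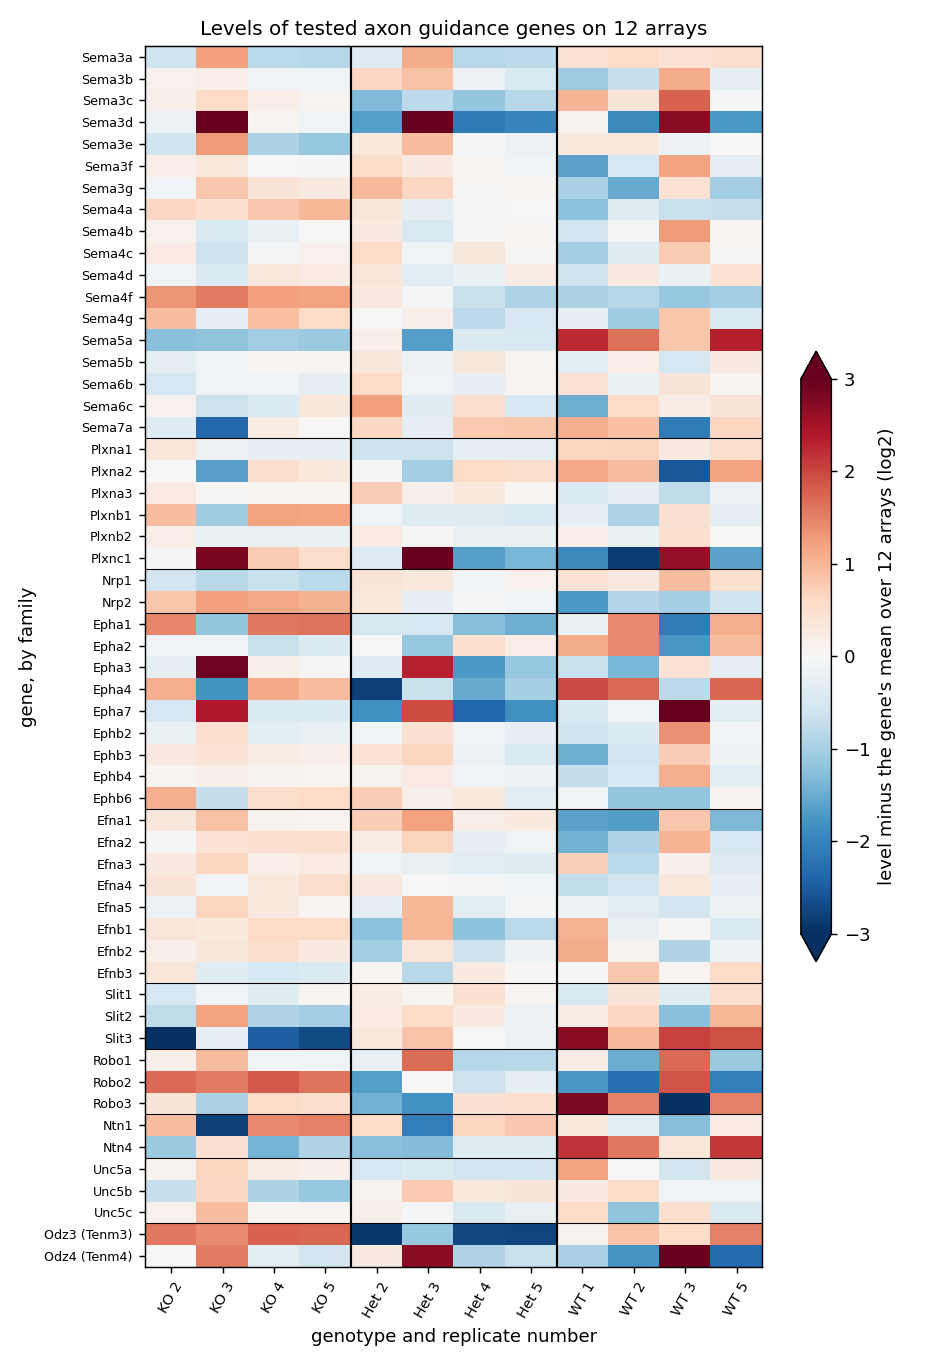
Levels of the 56 tested axon guidance genes on the 12 arrays, each gene centred on its mean over the arrays (log2 colour scale), with genes by family down the page and arrays grouped as KO, Het and WT. The column of replicate 3 departs from the rest of its genotype in many genes, among them Sema3d, Plxnc1 and Epha7.

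Over the 25 genes with at least 2 tested probes, the probes had the same sign for 20 genes between KO and WT, 20 between Het and WT and 19 between KO and Het.

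The arrays numbered 3 stood apart from the other arrays of their genotype in a part of the set. For 3 of the 56 genes, replicate 3 lay outside the other 3 arrays in each genotype, on one side and more than 4-fold from their mean (5.36%, beside 0.577% of all tested features). These were Sema3d, Plxnc1 and Epha7, all higher on replicate 3. Sema3d, a secreted class 3 semaphorin, was higher there by 3.51 in KO, 5.33 in Het and 3.90 in WT on the log2 scale. Plxnc1 was higher by 2.40 in KO, 4.21 in Het and 4.77 in WT, and Epha7, an ephrin receptor with a patterned expression in the embryo, by 2.83 in KO, 3.97 in Het and 4.22 in WT. In 29 of the 56 genes the shift of replicate 3 had the same direction in each genotype. The same count was not made over all tested features, so it is not known to be particular to the set. The median absolute shift was 0.73 for the guidance genes and 0.37 for all tested features. With 1 array a genotype, these are descriptions.

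**Figure D5:**
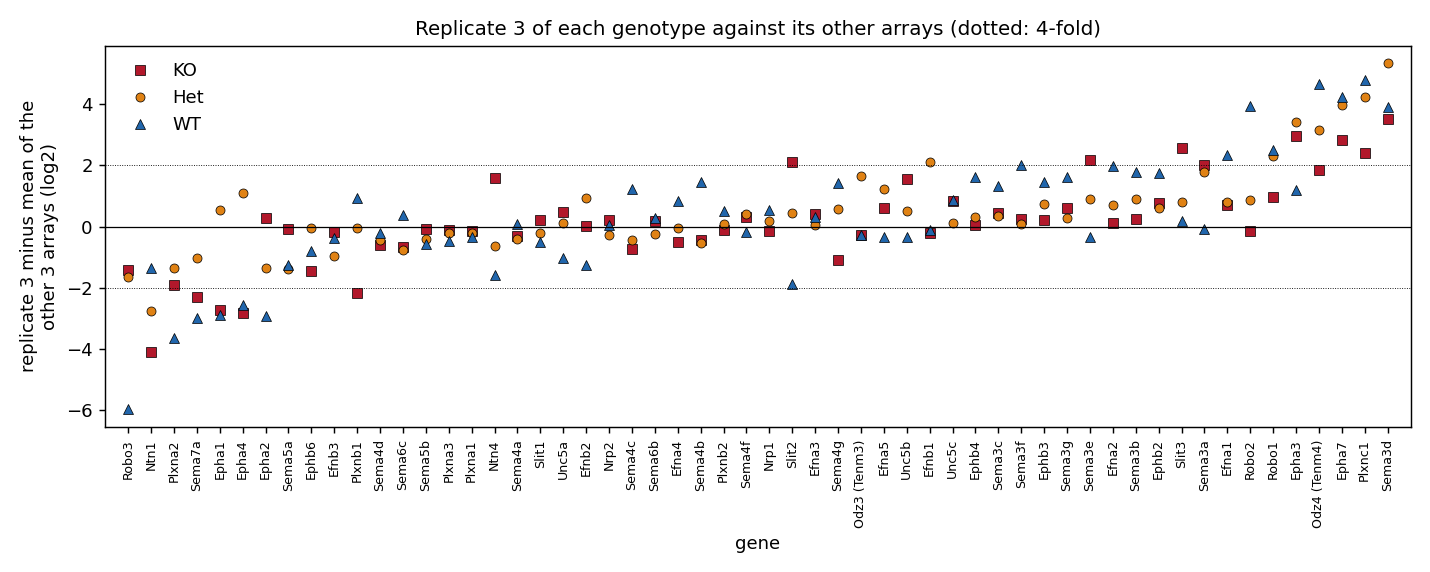
Replicate 3 of each genotype minus the mean of its other 3 arrays (log2), for the 56 tested genes in order of the mean shift, with dotted lines at 4-fold. Sema3d, Plxnc1 and Epha7 lie above the upper line in KO, Het and WT, and Robo3 and Ntn1 lie at the low end.

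Without the 3 arrays numbered 3, more of the set was called, as was more of the array as a whole. Between KO and WT, 26 of 56 were called (46.4%, beside 17.3% of all tested features), 14 higher and 12 lower, and these held all 7 of the calls on 12 arrays. Robo2, which entered the test through its KO arrays alone, then exceeded WT by 3.76 (SE 0.32, limma adjusted p = 0.000195) and Efna1 by 1.72 (adjusted p = 0.000531), while Sema3a fell by 1.25 (adjusted p = 0.00123) and Epha2 by 1.56 (adjusted p = 0.00168). Between Het and WT, 19 of 56 were called (33.9%, beside 12.2%), 6 higher and 13 lower, with all 5 of the earlier calls. They included Efna1 (1.95, adjusted p = 0.000454), Epha4 (−3.57, adjusted p = 0.00101), Epha7 (−1.70, adjusted p = 0.000922) and Sema3a (−1.16, adjusted p = 0.0025). Between KO and Het, 18 of 56 were called (32.1%, beside 8.95%), 11 higher and 7 lower, with 3 of the 4 earlier calls; Nrp2 was the one lost (0.97, adjusted p = 0.0668). Leaving out WT replicate 3 alone gave 15 calls between KO and WT (beside 9.72% of all tested features). It gave 16 between Het and WT (beside 8.06%) and 6 between KO and Het (beside 1.95%). Leaving out KO replicate 4 or KO replicate 5, the closest pair, gave 6 between KO and WT (beside 0.3% and 0.353% of all tested features).

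Among genes that carry guidance signals inside the cell or act as co-receptors, Farp2, Vav3 and Chn1 were called on all 12 arrays. Of 64 such genes listed, 62 were on the array and 55 were tested. Between KO and WT, 1 of 55 was called (1.82%, beside 1.64% of all tested features), between Het and WT 2 (3.64%, beside 1.17%) and between KO and Het 2 (3.64%, beside 0.995%). Farp2, an exchange factor bound by A-type plexins, had −0.37, 0.17, −0.47 and −0.56 in KO and −0.43, 0.12, −0.31 and −0.34 in Het, against 0.51, 0.71, 0.61 and 0.73 in WT. All mutant arrays lay below WT, by 0.95 in KO (SE 0.18, limma adjusted p = 0.0317) and by 0.88 in Het (SE 0.18, adjusted p = 0.0473). Vav3, an exchange factor used by Eph receptors, had −2.67 to −2.11 in KO, against −1.03 to −0.08 in Het and −2.93 to −1.53 in WT, so that Het was higher than WT by 1.74 (SE 0.30, adjusted p = 0.0341) and KO lower than Het by 1.78 (SE 0.30, adjusted p = 0.0194). Chn1, a Rac-inactivating protein downstream of Epha4, had −6.52 to −5.09 in KO, −3.89 to −3.68 in Het and −5.84 to −4.26 in WT, and was lower in KO than in Het by 2.30 (SE 0.37, adjusted p = 0.0163). It was well above background on 3 of 4 KO, 4 of 4 Het and 3 of 4 WT arrays, so it entered the test through Het alone, and with normexp background correction KO minus Het was −0.80 (adjusted p = 0.544). Each of these 5 calls was lost without Het replicate 4 or 5 or KO replicate 2, 4 or 5, and all but that of Farp2 in KO also without Het replicate 2. The Farp2 calls were also lost without WT replicate 1, 2 or 5, and the Vav3 call in Het without WT replicate 2 or 5. With slide as a block, Farp2 (adjusted p = 0.0549 for KO and 0.0694 for Het) and Chn1 (0.0687) did not pass. Without scaling between arrays each of the 5 calls was lost (limma adjusted p 0.0643 to 0.127).

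Other signalling genes had large differences that did not pass. Srgap1, a GTPase-activating protein that binds Robo receptors, had −3.82 to −2.65 in KO, against −5.27 to −3.20 in Het and −6.95 to −3.69 in WT (KO minus WT 2.72, SE 0.64, limma adjusted p = 0.0617). Its probe was well above background on 4 of 4 KO, 4 of 4 Het and 2 of 4 WT arrays, so WT was near the background. The teneurin-binding latrophilin Lphn3 was higher in Het than in WT by 2.63 and its partner Flrt3 lower by 1.99, neither of them called, and Crmp1, a semaphorin signalling protein, was lower in Het by 2.07. L1cam and Ntng1, both cell surface proteins, were lower in KO than in WT by 1.73 (SE 0.83, limma adjusted p = 0.332) and 1.12 (SE 0.50, adjusted p = 0.289). L1cam had −6.72 to −4.27 in KO, against −5.68, −5.10, −1.44 and −4.81 in WT, where replicate 3 stood far above the other arrays. It was well above background on 3 of 4 KO arrays. The kinase gene Fes was lower in KO than in Het by 1.93. Some of these passed when 1 array was left out. Without Het replicate 3, Flrt3 was at −2.73 for Het minus WT (adjusted p = 0.0039) and 2.61 for KO minus Het (adjusted p = 0.00365). Without WT replicate 3, Het minus WT was 3.23 for Lphn3 (adjusted p = 0.0441) and −3.07 for Crmp1 (adjusted p = 0.04). Srgap1 passed between KO and WT without WT replicate 1 (3.40, adjusted p = 0.0129) or WT replicate 3 (2.59, adjusted p = 0.0482), and Fes between KO and Het without KO replicate 3 (−2.56, adjusted p = 0.0207).

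Genes that mark other cells differed in level between some of the groups. For Schwann and neural crest markers (6 genes, 4 of them above background on all 12 arrays), the summed signal, in units of the array's 75th percentile, was 0.743 to 0.917 in KO, 0.808 to 2.22 in Het and 0.291 to 0.622 in WT, so both mutant genotypes lay above WT. For endothelial markers (8 on the array, 2 above background on all 12) it was 0.353 to 2.22 in KO, 0.171 to 0.867 in Het and 0.296 to 2.06 in WT, with Pecam1 and Tie1 above background on no array. Smooth muscle markers (8, with 5 above background on all 12) summed to 157.3 to 175.7 in KO, 87.1 to 140.5 in Het and 89.3 to 399.9 in WT. Neuronal markers (9, with 2) summed to 0.973 to 2.13 in KO, 0.682 to 1.08 in Het and 0.775 to 1.86 in WT. Macrophage markers (7, with 1) summed to 0.254 to 0.321 in KO, 0.217 to 0.337 in Het and 0.201 to 0.454 in WT, with Ptprc above background on no array. Epithelial and mesothelial markers (7, with 3) summed to 12.4 to 35.7 in KO, 9.41 to 22.9 in Het and 3.28 to 65.8 in WT, and skeletal muscle markers (5, with 1, Myf5 on none) to 1.67 to 2.67 in KO, 1.29 to 2.18 in Het and 1.63 to 5.54 in WT. Their part in the differences of the guidance genes was not tested.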

How the data were processed

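The 12 arrays are Agilent 1-colour whole-genome arrays, labelled with Cy3 from 500 ng of total RNA per the labels' protocols. The deposited files hold spot intensity values from Agilent Feature Extraction 9.5.3.1, per the file headers (9.5 in the submitters' processing notes), and the deposited series table of intensity values equals the processed signal. Control spots and flagged spots were left out, spots of a probe were averaged, and log2 of the processed intensity minus the array's 75th percentile was tested with limma 3.58.1 (R 4.3.3), with 1 fit of 12 arrays and no block. The probe with the highest mean stood for a gene. p-values were adjusted by Benjamini-Hochberg over all tested features. Tests were checked on simulated data with independent noise for each feature and array. These data had no slide effect and no shift shared between arrays, so the check does not cover them. The number of arrays limits the precision.

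The members, the lists and the rules were chosen with earlier results of these data known. Genes were named if called, if among the 8 largest differences of a comparison (3 for signalling genes), if past the replicate 3 criterion, or if in a listed ligand and receptor pair. No probe named Plxnd1 was matched. Of the 130 probes, 85 matched RefSeq by accession, 41 by symbol and 4 by synonym. The alternatives were background correction, normalization, filters, blocks, array weights, probe choice and leaving out arrays.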

Additional observations from a re-analysis of the deposited data

Results flagged for a closer look

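In 21 of 102 groups of 4 arrays (the 34 named guidance genes in 3 genotypes), 1 array lay far from the other 3 by Dixon's test, which marks about 1 in 20 groups by chance in genes not chosen for it, and 20 of the 21 were the array numbered 3. Among KO arrays, replicate 3 was low for Epha1 (−1.17), Epha4 (−4.39), Ntn1 (−5.21) and Plxnb1 (−2.57). It was high for Epha7 (0.49), Ephb2 (1.14), Sema3a (1.66), Sema3d (0.43), Slit2 (4.31) and Unc5c (0.58). Among Het arrays, replicate 3 was high for Epha7 (0.05), Odz3 (−0.75) and Sema3d (0.41), and low for Ntn1 (−4.49). Among WT arrays, replicate 3 was high for Efna1 (0.18), Epha7 (2.00) and Robo2 (−3.27), and low for Epha2 (0.77), Epha4 (−3.39) and Sema7a (−4.26). The exception was Plxna1 in KO replicate 2 (1.65, against 1.04 to 1.11 on the other KO arrays). Groups of 4 share arrays, so these marks are not independent of each other. The chance share does not apply to this set, because genes were named partly for the shift of their replicate 3 arrays: Epha7 and Sema3d, named for it, give 5 of the 20.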

How the results depend on the processing

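None of 41 fold changes of named genes (those called or among the largest of a comparison) turned direction under the alternatives run. Counts of called guidance genes, 7 (KO minus WT), 5 (Het minus WT) and 4 (KO minus Het) on all 12 arrays, moved with the setting. In the order Het minus WT then KO minus Het, normexp gave 2 and 2, beside 0.247% and 0.406% of all tested features. No filter on dim probes gave 1 and 2 (beside 0.118% and 0.222%). A term for number 3 gave 9 and 7 (beside 3.42% and 2.37%). Without scaling Het minus WT had 3 (beside 0.465%). In the order KO minus WT, Het minus WT, KO minus Het, slide as a block gave 4, 1 and 2 (beside 0.335%, 0.182% and 0.471%). Leaving out number 3 gave 26, 19 and 18 (beside 17.3%, 12.2% and 8.95%). Array weights gave 36, 20 and 29 of 56 (beside 51.5%, 28.5% and 37.8%), with the arrays weighted by the same spread that is tested. Leaving out 1 array at a time gave 6 to 15, 1 to 16 and 1 to 6. Beside them, 0.3% to 9.72%, 0.0883% to 8.06% and 0.153% to 2.23% of all tested features were called. The count of guidance genes was highest without WT replicate 3 in each comparison, tied with KO replicate 3 in the last. The cause of these shifts was not tested. Signalling genes (1, 2 and 2 of 55 called) gave 14, 13 and 9 without number 3 and 25, 25 and 28 with array weights, beside the shares above. With a term for number 3 they gave 3, 6 and 4 (beside 4.32%, 3.42% and 2.37%). Without scaling they gave 0, 0 and 1 (beside 0.836%, 0.465% and 0.965%), and the 1 was higher in KO, unlike Vav3 and Chn1. With no filter they also gave 0, 0 and 1 (beside 0.343%, 0.118% and 0.222%). At an unadjusted p under 0.05 by limma, no scaling gave 7, 14 and 14, beside 2255, 2476 and 2457 of 16990 features. No filter gave 7, 14 and 12, beside 3067, 2792 and 2484 of 27961. Leaving out 1 array gave 0 to 6, 0 to 10 and 0 to 5 calls. Normexp and the slide block each gave 1 for Het minus WT and 1 for KO minus Het. A filter on all 12 arrays gave 1 for KO minus Het (beside 0.77% of all features tested there).

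The titles give replicate numbers, but same-numbered arrays did not deviate together in every pair (correlations −0.036 to 0.427), so the numbers were not taken as pairs. The arrays numbered 3 did deviate together, at 0.36 (Het and KO), 0.427 (Het and WT) and 0.221 (KO and WT). The other same-numbered pairs were at −0.036 to 0.313. The main fit had no term for number 3, so this shared shift is part of its spread. The replicate block gave 2 guidance genes for Het minus WT and 2 for KO minus Het, and 1 signalling gene for Het minus WT. Beside them, 0.483% (Het minus WT) and 0.901% (KO minus Het) of all tested features were called. The replicate block over numbers 2, 3 and 5 gave 0 guidance and 0 signalling genes in each comparison by limma. At an unadjusted p under 0.05 it gave 15, 15 and 13 guidance genes and 7, 15 and 14 signalling genes (KO minus WT, Het minus WT, KO minus Het). Of all 16990 tested features, 1666, 1944 and 1236 had an unadjusted p under 0.05 in that order, and 0.053%, 0% and 0.053% were called.

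Among the alternatives run, the calls of Nrp2, Sema4a, Sema4f and Slit3 between KO and WT, and both calls of Odz3, were lost under that block alone. Signal over background limits Ntn4 and Robo2, which were well above background on 8 of 12 arrays each.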
